A study of Rattus norvegicus with 6 samples.

Results

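MiR-223 and miR-142 are microRNAs that blood cells of the myeloid lineage and platelets hold in abundance. All array features named rno-miR-223-3p, rno-miR-142-3p or rno-miR-142-5p that were not controls were taken, which made 3 of the 758 rat microRNAs on the array, each with 2 probes and 16 spots per array. The rule goes by name alone, although the names were picked with earlier results of these data known. Plasma was collected from 3 male Sprague-Dawley rats aged 10 weeks that had received no treatment. Each rat gave 1 arterial plasma sample from the abdominal aorta and 1 venous plasma sample from the postcava, so both groups held 3 samples that shared strain, sex, age and handling and differed in the vessel. Each of the 6 samples was hybridized to 1 single-colour Agilent microRNA array, on which the intensity of a spot reports how much labelled microRNA bound its probe. The question was whether the microRNA profiles of arterial and venous plasma of the same animal differed. Plasma was spun at low and then at high speed and filtered before RNA extraction.

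MicroRNAs are short RNAs cut from a hairpin precursor, and either arm of the hairpin, named 5p or 3p, can be loaded into an Argonaute protein and pair with messenger RNAs through its seed near the 5′ end. MiR-223 is switched on as myeloid cells mature, restrains the production and activity of granulocytes, and is carried by platelets and by vesicles in plasma. MiR-142 is made throughout the hematopoietic system, and both of its arms accumulate as functional microRNAs.

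The mature sequences of the members are shown because the seed decides which messages a microRNA can pair with. They are RefSeq sequences of the GRCr8 rat assembly, written 5′ to 3′ with the seed (bases 2 to 8) in capitals.
rno-miR-223-3p: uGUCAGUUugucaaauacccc
rno-miR-142-3p: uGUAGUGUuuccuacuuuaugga
rno-miR-142-5p: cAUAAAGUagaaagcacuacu
The 3 seeds were all different, and none of the other mature rat sequences among the 693 names in the RefSeq table carried any of them. Rno-miR-223-3p is encoded at chrX:65151450-65151470, rno-miR-142-3p at chr10:73055155-73055177 and rno-miR-142-5p at chr10:73055119-73055139, all on the plus strand. The hairpins are shown because the members are 1 arm of the first and both arms of the second, with the 5p and then the 3p arm in capitals.
Mir223: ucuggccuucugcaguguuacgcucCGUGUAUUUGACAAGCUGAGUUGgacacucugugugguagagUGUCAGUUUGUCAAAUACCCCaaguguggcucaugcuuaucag
Mir142: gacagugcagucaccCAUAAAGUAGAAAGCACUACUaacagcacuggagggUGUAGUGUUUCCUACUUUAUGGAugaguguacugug
The longest unbroken Watson-Crick pairing between the arms was 11 bases in Mir223 (chrX:65151383-65151492) and 10 bases in Mir142 (chr10:73055104-73055190). In the RefSeq annotation Mir223 overlaps the long noncoding RNA gene LOC120099372 between Msn and Vsig4, and Mir142 lies within the span of Tspoap1, next to Mpo, the gene of the neutrophil enzyme myeloperoxidase. Exon structure was not used here. The array was designed on another assembly (rn4), and these coordinates locate the genes, not the probes.

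Between 137 and 175 microRNAs were detected on an array, 126 of them on all 6 arrays and 557 on none. The arrays differed in brightness. Over the 126 microRNAs, the median processed intensity of the arterial arrays was 35.4 for rat 1, 41.8 for rat 2 and 30.1 for rat 3, and that of the venous arrays was 21.8, 52.9 and 17.2. Both samples of rats 1 and 2 were on 1 slide and both samples of rat 3 on another. Each slide therefore held both plasma types, but what sets rat 3 apart cannot be told from its slide. Precision is limited by how few arrays there were.

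All 3 members were detected on all 6 arrays, and none of their spots was saturated. Processed intensity is background-subtracted and not scaled between arrays. For miR-223-3p, the detected arm of its hairpin, it was 321, 385 and 392 on the arterial arrays of rats 1, 2 and 3. On the venous arrays it was 233, 460 and 162. The brightest and the dimmest array, both venous, differed 2.84-fold, and the arterial values lay within the venous range. The group means were 366 ± 38.8 in arterial and 285 ± 156 in venous plasma (SD, n = 3). All of its 96 spots were well above background.

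MiR-142-3p, which is used as a marker of blood cells in general, gave 7.07, 7.20 and 23.6 in arterial and 6.19, 15.8 and 8.02 in venous plasma of rats 1, 2 and 3. The arterial array of rat 3 stood above the other arrays and the venous array of rat 2 came next, so the groups overlapped. The means were 12.6 ± 9.49 and 10.0 ± 5.12 (SD, n = 3). Only 32 of its 96 spots were well above background, and on the arterial array of rat 2 and the venous array of rat 1 there were 0, although the software called the microRNA detected there. All 16 spots passed on the arterial array of rat 3 alone, against 9 on the venous array of rat 2 and 5 or fewer on each of the others.

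MiR-142-5p, the opposite arm of that hairpin, gave 14.6, 15.7 and 18.0 in arterial and 9.59, 26.6 and 8.40 in venous plasma. As for miR-223-3p, the arterial values were close to each other and lay between the venous value of rat 2, which was the highest, and those of rats 1 and 3. The means were 16.1 ± 1.72 and 14.9 ± 10.2 (SD, n = 3), and 67 of 96 spots were well above background. The other arm of the miR-223 hairpin, rno-miR-223-5p, was detected on none of the arrays, with 0 of 96 spots well above background and mean intensities between -2.10 and -0.853.

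**Figure D1:**
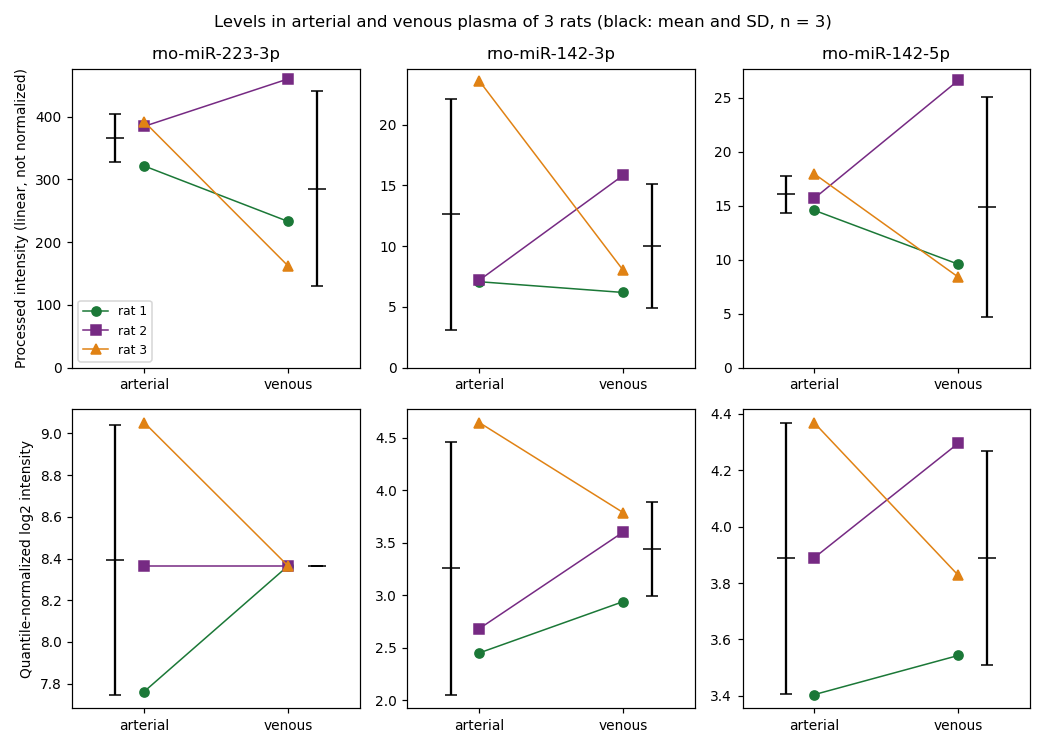
Processed intensity (upper panels, linear) and quantile-normalized log2 intensity (lower panels) of the 3 microRNAs in arterial and venous plasma, with the samples of a rat joined by a line and the mean and SD (n = 3) in black beside each group. The arterial and venous values overlapped in every panel, and after normalization rat 3 was higher in arterial plasma for each of the 3, by 0.54 to 0.86 (log2).

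Before any scaling, the members followed the rat. In rat 2 the venous sample was brighter, by 1.20-fold for miR-223-3p, 2.20-fold for miR-142-3p and 1.69-fold for miR-142-5p. The ratio of miR-142-3p is against an arterial array on which 0 of 16 spots were well above background, and the same holds for its venous array in rat 1, so its size in rats 1 and 2 is uncertain. In rat 3 the arterial sample was brighter, by 2.42-fold, 2.94-fold and 2.14-fold in the same order. On the venous array of rat 3, 5 of 16 miR-142-3p spots were well above background, so the size of its ratio there is uncertain as well. In rat 1 the arterial sample was also the brighter, by 1.38-fold, 1.14-fold and 1.52-fold. For miR-142-5p, 2 and 6 of 16 spots were well above background on the venous arrays of rats 1 and 3. The size of its ratio in those rats is therefore uncertain too. The array medians moved the same way as the members, with an arterial over venous ratio of 1.62, 0.790 and 1.75 in rats 1, 2 and 3. The part of array brightness in the unscaled differences was not tested. Relative to the array median, the log2 differences between arterial and venous plasma of rats 1, 2 and 3 were -0.24, 0.08 and 0.46 for miR-223-3p. They were -0.51, -0.80 and 0.75 for miR-142-3p and -0.10, -0.42 and 0.29 for miR-142-5p. Each member was thus higher in the arterial plasma of rat 3 and lower in that of rat 1, whereas rat 2 was split between miR-223-3p and the miR-142 arms.

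Quantile normalization, which gives every array the same set of values and keeps each microRNA's rank, left a range over the 6 arrays of 1.29 for miR-223-3p, 2.19 for miR-142-3p and 0.96 for miR-142-5p on the log2 scale. Normalized log2 intensities of miR-223-3p were 7.76, 8.36 and 9.05 on the arterial arrays of rats 1, 2 and 3 and 8.36, 8.36 and 8.36 on the venous arrays. It ranked 12, 8 and 4 in brightness on the arterial arrays and 8 on every venous array, so 4 arrays received one and the same value and the venous SD was 0. That SD describes the ranks and not the reproducibility of the measurement, since the unscaled venous intensities ranged from 162 to 460. MiR-142-3p had 2.45, 2.68 and 4.64 in arterial and 2.94, 3.60 and 3.79 in venous plasma. MiR-142-5p had 3.40, 3.89 and 4.37 in arterial and 3.54, 4.29 and 3.83 in venous plasma. The arterial array of rat 3 was the highest of the 6 and the arterial array of rat 1 the lowest for all 3 microRNAs, and the venous arrays lay between them.

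None of the members differed between arterial and venous plasma by more than the spread between rats. The log2 difference (arterial minus venous) of miR-223-3p was 0.03 (SE 0.355, 95% interval -1.38 to 1.43, limma with the rat as a block, Benjamini-Hochberg adjusted p = 1). That of miR-142-3p was -0.18 (SE 0.510, 95% interval -2.20 to 1.83, limma adjusted p = 1). That of miR-142-5p was -0.0013 (SE 0.268, 95% interval -1.06 to 1.06, limma adjusted p = 1). These intervals leave room for a difference of more than 1 log2 unit either way, so the data do not show that the levels were equal. Exact two-sided permutation tests within rats gave p = 1 for miR-223-3p, 0.75 for miR-142-3p and 1 for miR-142-5p. The smallest p these exact tests could give was 0.25 for the miR-142 arms and 0.5 for miR-223-3p, whose difference in rat 2 was 0. By limma 0 of the 758 microRNAs passed an adjusted p of 0.05 (0%), 12 had an unadjusted p below 0.05, and 6 (0.792%) passed the unadjusted cutoff of 0.025 used in the study's methods. Of the 126 microRNAs detected on all arrays 3 (2.38%) passed that cutoff when fitted alone. The members passed it in neither fit. With the methods' t-test 4 microRNAs passed that unadjusted cutoff, with 0 members among them, and 0 were called after adjustment. Fitting the 126 microRNAs detected on all arrays alone narrowed the interval to -0.69 to 0.75 for miR-223-3p, -1.12 to 0.76 for miR-142-3p and -0.61 to 0.61 for miR-142-5p.

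The near-zero means were made of opposite differences in single rats. For miR-223-3p the normalized log2 differences were -0.60, 0 and 0.69 in rats 1, 2 and 3. For miR-142-3p they were -0.49, -0.92 and 0.86, of which the first and second became 0 and -0.28 with a floor of 10, and for miR-142-5p they were -0.14, -0.40 and 0.54. The members shared this order: not higher in arterial plasma in rats 1 and 2, and higher in rat 3. Of the 126 microRNAs detected on all arrays, 25 (19.8%) had the same pattern, which was noticed after the values were seen and is given as a description. A difference in the same direction in all 3 rats was found for 25 of the 126 (19.8%), of which 12 (9.52%) were higher and 13 (10.3%) lower in arterial plasma, and for 0 of the 3 members. Without rat 3 the mean of miR-223-3p became -0.28 and that of miR-142-3p -0.72. Without rat 1 that of miR-142-3p was 0.07 and without rat 2 it was 0.12, so single rats decided the signs.

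**Figure D2:**
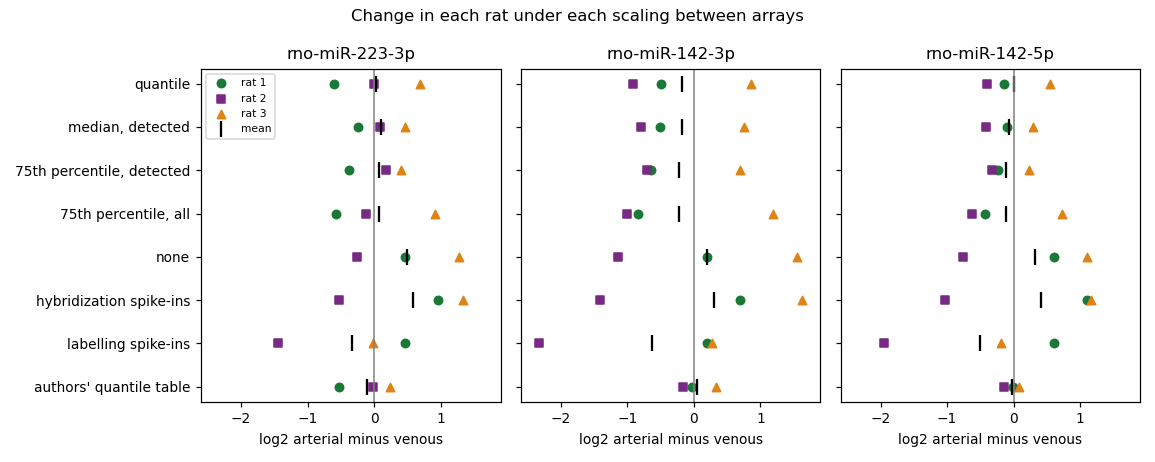
Log2 difference between arterial and venous plasma in each rat (points) and its mean (black tick) under 8 ways of scaling the arrays, for each of the 3 microRNAs. Rat 3 lies to the right of rat 2 in every row, and the sign of the mean changes between rows for each microRNA.

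Scaling moved the means of the 3 microRNAs together. With no scaling, with hybridization spike-ins and with labelling spike-ins, the median difference of the 126 detected microRNAs itself shifted to 0.40, 0.50 and -0.42. Relative to that median, the mean differences of miR-223-3p, miR-142-3p and miR-142-5p were 0.09, -0.20 and -0.09 under any scaling by 1 factor per array. The plot of the differences by scaling shows that the order of the rats also moved in part. Over its 8 scalings the difference in rat 3 was above that in rat 2 in 8 of 8 for each member. It was above that in rat 1 in 7 for miR-223-3p, 8 for miR-142-3p and 7 for miR-142-5p, with the labelling spike-ins as the exception. Rat 1 was above rat 2 in 8 of 8 for both miR-142 arms but in 3 of 8 for miR-223-3p, namely without scaling and with either kind of spike-in.

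The spots of the 3 microRNAs gave the spread within an array, taken over those not marked as outliers. Leaving outliers out can make that spread smaller. For miR-223-3p the spots of a probe varied by 0.663 to 5.55% (coefficient of variation), against a 2.84-fold range between arrays. Its probes gave log2 differences, scaled on the array median, of -0.21, 0.10 and 0.47 and of -0.26, 0.07 and 0.46 in rats 1, 2 and 3. Both probes thus gave the same signs in each rat. For miR-142-3p the spots varied by 8.48 to 19.8% on the first probe and 10.8 to 50.2% on the second. Its probes gave -0.50, -0.74 and 0.66 and -0.52, -0.90 and 0.92. On the second probe 0 of 8 spots were well above background on 4 of the 6 arrays, and on the first probe on 2, so no agreement between the probes is read from rats 1 and 2, and the size in rat 3 on the second probe is uncertain. For miR-142-5p the spots varied by 3.75 to 11.8% and 7.80 to 24.8%. Its probes gave 0.09, -0.36 and 0.49 and -0.28, -0.48 and 0.10, so they differed in sign in rat 1. On the venous array of rat 1 only 0 and 2 of the 8 spots of these probes were well above background, so that split is uncertain. On the venous array of rat 3 it was 2 and 4 of 8. The size in rat 3, 0.49 on 1 probe and 0.10 on the other, is therefore uncertain too. Of the 96 spots of each microRNA, 17 of miR-223-3p, 9 of miR-142-3p and 11 of miR-142-5p had been marked as outliers and were left out.

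**Figure D3:**
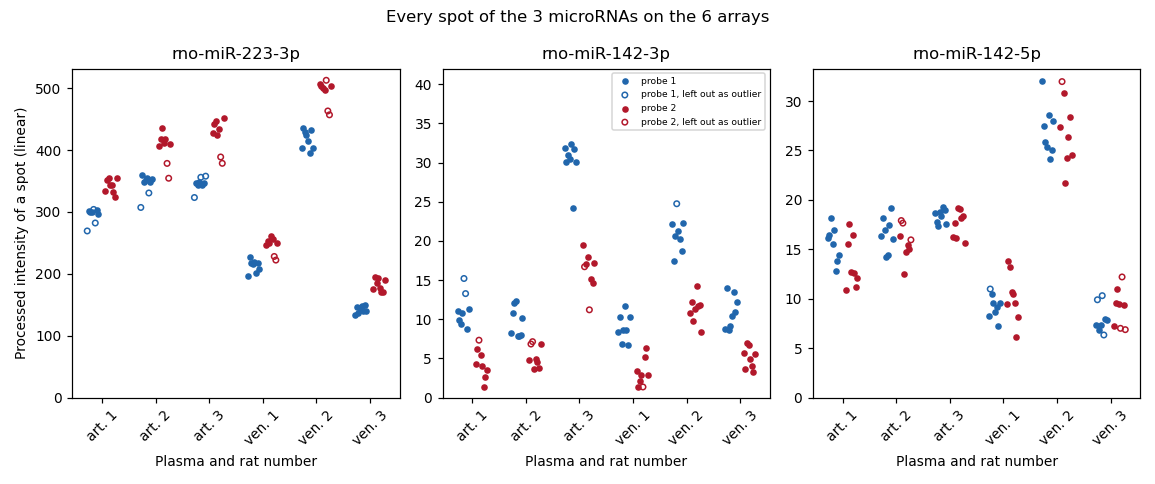
Processed intensity (linear) of every spot of the 3 microRNAs on the 3 arterial (art.) and 3 venous (ven.) arrays, coloured by probe, with spots left out as outliers drawn open. The spots of miR-223-3p lie in tight groups that differ between arrays, and those of miR-142-3p stand apart only on the arterial array of rat 3 and, less so, on the venous array of rat 2.

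Both arms of miR-142 come from 1 transcript, and their differences were compared directly. The difference of miR-142-3p minus that of miR-142-5p was -0.35, -0.51 and 0.32 in rats 1, 2 and 3. The mean was -0.18 ± 0.44 (SD, n = 3; exact two-sided permutation p = 0.5, smallest possible 0.25), and its sign was not shared by all rats. No difference between the arms was detectable with 3 pairs. With the brightest probe the mean was -0.31 and with a floor of 10 it was 0.19, each at the smallest possible exact permutation p, 0.25. The sign, and whether the rats shared it, thus depended on the processing. On the arterial array of rat 2 and the venous array of rat 1, 0 of 16 miR-142-3p spots were well above background. The values in rats 1 and 2 are therefore uncertain.

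Other microRNAs of myeloid cells and platelets were read from a marker list of 12, of which 7 were detected on all arrays, 9 on at least 3 and 1, miR-223-5p, on none. By limma 0 of them passed an adjusted p of 0.05 or the unadjusted cutoff, 5 of the 7 had a difference above 0 and 2 below, and their median was 0.01 against -0.0040 for all 126. In rat 1, 0 of these 7 were higher in arterial plasma, against 44 of the 126. In rat 3, 6 of the 7 were, against 63 of the 126. Rats 1, 2 and 3 had medians over the 7 of -0.29, 0.04 and 0.35. MiR-21-5p, a microRNA induced in many activated cells, had log2 differences of -0.40, 0.07 and 0.36. MiR-27a-3p, from the miR-23a cluster of myeloid cells, had -0.31, -0.15 and 0.48. MiR-126a-3p, which endothelium and platelets share, had -0.14, 0.40 and 0.35. These 3 were thus also lower in the arterial plasma of rat 1 and higher in that of rat 3. So were miR-146a-5p (-0.16, 0.04 and 0.31), miR-23a-3p (-0.29, 0 and 0.14) and miR-199a-3p (-0.18, 0.04 and 0.59). MiR-126a-5p, detected on 5 arrays, had -0.08, 0.17 and 0.79. MiR-24-3p had -0.41, 0.22 and 0. MiR-155-5p, detected on 4 arrays, went the other way in rats 1 and 3, with 0.46, -0.34 and -0.20. The summed processed intensity of the 12 was 841 to 1267 in arterial and 441 to 1468 in venous plasma.

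Markers of red cells, which release their contents on hemolysis, moved with the members in part. Of the 7 erythrocyte markers, 5 were detected on all arrays and 2, miR-144-5p and miR-363-3p, on none. The log2 differences of miR-144-3p, an erythroid microRNA, were -0.26, -0.63 and 1.1 in rats 1, 2 and 3. MiR-451-5p, its abundant neighbour that is matured by Argonaute 2 instead of Dicer, had 0, 0 and 0.79. The 0 differences describe equal ranks and not equal levels. Its normalized arterial SD was 0, while its unscaled intensity ran from 397 to 2389 over the arrays. MiR-486, another red cell microRNA, had -0.23, -1.02 and -0.47 and was lower in arterial plasma of all 3 rats. MiR-16-5p had -0.24, -0.45 and 0.23, and miR-92a-3p had -0.33, -0.26 and 0. MiR-144-3p, miR-451-5p and miR-16-5p were therefore higher in the arterial plasma of rat 3, as the members were. The summed processed intensity of the 7 was 2752, 2602 and 2439 in arterial and 1908, 3887 and 924 in venous plasma. These sums had the rank order of miR-223-3p on the venous side but not on the arterial side. They are not scaled between arrays, and the medians of the venous arrays had the same order. After quantile normalization the sums were 2324, 2207 and 2562 in arterial and 2494, 2587 and 1999 in venous plasma. The part of red cell RNA in the differences of the members was not tested. Of the 4 lymphocyte markers 3 were detected on all arrays, with a median difference of -0.40. They were split, with 1 higher and 2 lower in arterial plasma. Their list summed to 496 to 539 in arterial and 364 to 743 in venous plasma. In plasma, fewer contributing cells and less RNA released per cell cannot be told apart.

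Of the liver markers 2 of 3 were detected on all arrays, and of the muscle markers 1 of 6, with 4 on none. By limma 0 of the marker microRNAs of any list passed an adjusted p of 0.05. At the unadjusted cutoff of 0.025 1 did, the lymphocyte marker miR-342-3p, which is named after its values were seen. Its log2 differences were -0.33, -0.42 and -0.49 in rats 1, 2 and 3, lower in arterial plasma in each, a pattern that the members did not share (limma unadjusted p = 0.00820, adjusted p = 1).

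**Figure D4:**
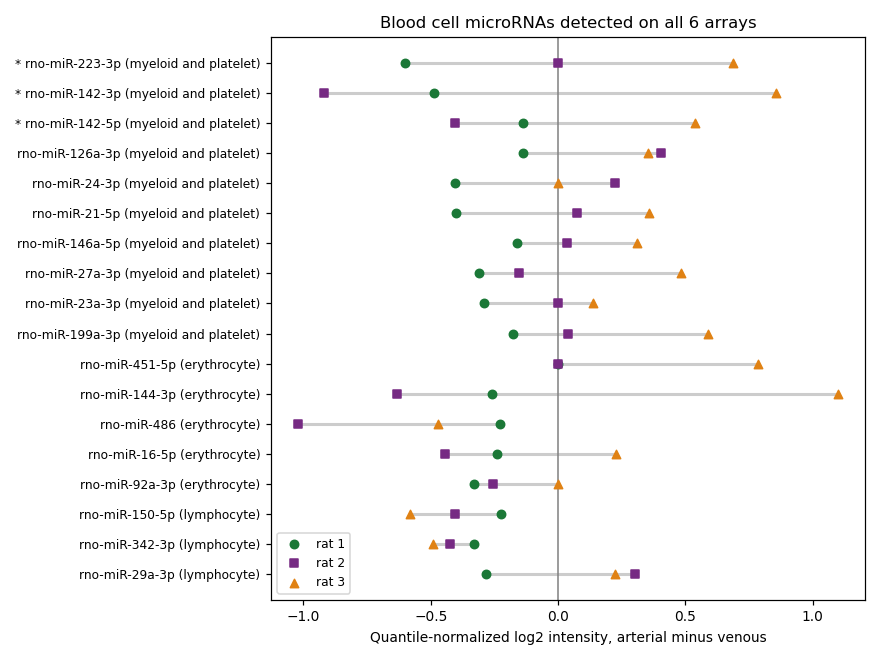
Quantile-normalized log2 difference between arterial and venous plasma in each rat (points, with a grey bar over their range) for the blood cell microRNAs detected on all 6 arrays, with the 3 members starred. The members reach from -0.92 to 0.86, and miR-144-3p has a range of the same order, from -0.63 to 1.1.

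The microRNAs most like each member were named by the Pearson correlation of normalized log2 intensity over the 6 arrays, among the other 125 microRNAs detected on all of them. These points share the rat in pairs and the normalization, and the correlations are given as a description. For miR-223-3p they were miR-15b-5p (0.899), miR-27a-3p (0.888), miR-215 (0.885), miR-144-3p (0.867) and miR-21-5p (0.858). For miR-142-3p they were miR-500-3p (0.936), miR-15b-5p (0.935), miR-144-3p (0.888), miR-215 (0.874) and miR-223-3p (0.856). For miR-142-5p they were miR-27a-3p (0.966), miR-107-3p (0.961), miR-144-3p (0.946), miR-103-3p (0.943) and miR-16-5p (0.941). MiR-144-3p was in all 3 lists. When the arrays were scaled on their medians instead, 2, 3 and 2 of the 5 neighbours stayed in the lists of miR-223-3p, miR-142-3p and miR-142-5p. The members' own correlations depended on the scaling as well. For the miR-142 arms r was 0.800 after quantile normalization, 0.942 on median-scaled and 0.662 on unscaled values. For miR-223-3p with miR-142-5p r was 0.784, 0.627 and 0.947, and for miR-223-3p with miR-142-3p it was 0.856, 0.740 and 0.551.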

How the data were processed

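Arterial and venous plasma of 3 rats was measured on 6 Agilent arrays. The authors deposited spot intensities from Agilent Feature Extraction (version 11.0.1.1 in the processing notes and methods, 10.7.3.1 per the file headers), background-subtracted and not scaled between arrays, and a quantile-normalized table of linear intensity from GeneSpring, used as an alternative. The detection and outlier flags are those of the deposited files. Control and outlier-flagged spots (8.72 to 10.4% per array) were left out, spots were averaged within probes and probes within microRNAs, 758 microRNAs were quantile normalized, a floor of 1 was set and log2 was taken. Of the 758, 378 were at the floor on every array. The test was limma 3.58.1 under R 4.3.3 (rat as a block, two-sided, prior degrees of freedom 0.198, or 3.22 over the 126 microRNAs detected on all arrays), beside exact permutation tests in Python 3.11.15. The steps were run on simulated data. Signs were recovered, and sizes only roughly, as medians over several microRNAs. When many detected microRNAs were changed, unchanged ones passed the unadjusted cutoff more often than its nominal rate. They seldom did when fewer were changed, a case added after that was seen. The simulated arrays did not differ in brightness, and their noise was below the spread of the members between rats. Recovery at that spread was not tested. Pairing takes the replicate number in the labels as the rat, since the study matched the samples of each rat. Deviations from the group means correlated at 0.635 to 0.799 within a rat and -0.733 to -0.0118 between rats. Values below 0 between rats follow in part from subtracting a mean of 3 arrays. In rat 3 a shared rat cannot be told apart from a shared slide. Named microRNAs were the members, miR-223-5p, marker lists from textbook knowledge (single values for myeloid and platelet and erythrocyte markers detected on at least 3 arrays) and the 5 most correlated with each member. The members and lists were chosen with earlier results of these data known. Alternatives changed scaling, intensity, spot and probe summary, floor, filter, test, block and rats. Sequences were RefSeq's.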

Additional observations from a re-analysis of the deposited data

How the results depend on the processing

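The members passed neither threshold under any of 23 alternatives, where the lowest limma adjusted p of a member was 0.915, but the signs changed. In the authors' table the differences of miR-223-3p, miR-142-3p and the arms (3p minus 5p) were -0.10, 0.047 and 0.075. With the brightest probe miR-223-3p had -0.016 and miR-142-5p 0.13. With a floor of 10 miR-142-3p and the arm difference both had 0.19. With normexp, run on the median spot signal, miR-142-3p, miR-142-5p and the arm difference had 0.030, 0.021 and 0.0087. Without scaling the miR-142 arms (3p, 5p) had 0.20 and 0.31, and with hybridization spike-ins 0.30 and 0.41. With flagged spots kept and with the median of probes miR-142-5p had 0.017 and 0.00044. Labelling spike-ins, chosen after seeing the data, gave miR-223-3p -0.33, miR-142-3p -0.62 and miR-142-5p -0.51. With the total gene signal of the software miR-142-3p had -0.47, miR-142-5p -0.12 and the arm difference -0.35. The cause was not tested. Leaving out 1 rat at a time gave -0.28 to 0.30 for miR-223-3p, -0.72 to 0.12 for miR-142-3p, -0.27 to 0.14 for miR-142-5p and -0.44 to 0.0042 for the arm difference. Fits with no replicate block, which ignore the pairing, kept the differences of 0.03, -0.18 and -0.0013, with SE 0.364, 0.724 and 0.345, and changed no call. Adjusted calls over the whole table stayed at 0, except 1 among microRNAs detected on at least 1 array, and those past the 0.025 cutoff ran from 2 (floor of 10 or labelling spike-ins) to 28, against 6, with 28, 20 and 18 without rat 1, 2 and 3. Filters and model alternatives do not apply to the arm difference. Low signal over background limits miR-142-3p most.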
